A study of Mus musculus with 18 samples.

Results

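The epidermal differentiation complex is a cluster of genes for proteins that build the outer, cornified layers of skin and other stratified epithelia. The genes described here were all rows of the count table whose mouse symbol is Lce, Sprr or S100a followed by a digit, together with Ivl, Lor, Flg, Flg2, Hrnr, Rptn and Crnn. This gave 55 genes of the 24376 in the table: 19 Lce, 15 Sprr and 14 S100a genes, the 2 envelope precursors Ivl and Lor, and 5 S100-fused genes (Crnn, Flg2, Flg, Hrnr and Rptn). In the GENCODE M21 annotation (GRCm38/mm10), 54 of them lay on chromosome 3 between 90511034 and 93564643, a stretch of 3.054 Mb, and the pseudogene S100a11-ps lay on chromosome 12. A further 5 genes of that annotation that match the names were not analysed here.

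RNA was sequenced from hand-dissected epithelium of mouse mammary buds 1 to 3, in embryos of a mixed C57Bl/6 and NMRI background. There were 5 stabilized and 5 control libraries at E16.5 (embryonic day), all from females, and 4 stabilized and 4 control libraries at E13.5, from both sexes. Stabilized embryos were Krt14Cre/wt; Ctnnb1 flox3/wt, so that Cre driven by the Krt14 promoter removes exon 3 from 1 Ctnnb1 allele in epithelial cells and the other allele stays wild type. Controls were Krt14wt/wt; Ctnnb1 flox3/wt littermates, which carried the same unrecombined allele and no Cre, so an effect of Cre itself and one of stabilized β-catenin cannot be told apart. Each library pooled 2 to 3 embryos of 1 litter and 1 genotype, and stage and sex makeup cannot be told apart either. β-catenin is the effector of canonical Wnt signalling, and the series states its question as the role of that pathway in the embryonic mammary gland.

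As background, keratinocytes that leave the basal layer replace their plasma membrane with a cornified envelope, a sheet of proteins that transglutaminases join by covalent bonds. Involucrin (Ivl) and loricrin (Lor), the small proline-rich proteins (Sprr) and the late cornified envelope proteins (Lce) are substrates of that reaction, while the S100-fused proteins, of which filaggrin (Flg) is the best known, bind keratin filaments or stay in the envelope. S100a genes encode small calcium-binding proteins, several of which are made in many cell types outside the skin. In the embryo the envelope genes are switched on late, when the epidermis stratifies and keratinizes, and control mammary buds serve here as the comparison.

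The promoters of a few of these genes are printed because the genes rose together at E16.5, as described further on, and differ in short motifs. Each line gives the 120 bases before the RefSeq start of the gene (GRCm38.p6), 5′ to 3′ on the gene's own strand. Capitals mark TATAAA (the TATA box), TGANTCA (the AP-1 motif, on either strand) and CACCC or its reverse complement GGGTG (a Klf-type motif). In Sprr1a the last 2 kinds overlap.

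Lor (chr3:92083143-92083262, minus strand): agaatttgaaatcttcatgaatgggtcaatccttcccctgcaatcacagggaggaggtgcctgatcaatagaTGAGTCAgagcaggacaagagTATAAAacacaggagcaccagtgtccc
Ivl (chr3:92573736-92573855, minus strand): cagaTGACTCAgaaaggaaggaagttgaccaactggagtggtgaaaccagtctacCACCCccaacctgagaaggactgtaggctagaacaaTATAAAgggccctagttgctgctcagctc
Crnn (chr3:93144669-93144788, plus strand): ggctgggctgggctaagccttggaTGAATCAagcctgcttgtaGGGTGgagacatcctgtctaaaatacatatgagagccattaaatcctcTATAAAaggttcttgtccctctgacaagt
Hrnr (chr3:93319629-93319748, plus strand): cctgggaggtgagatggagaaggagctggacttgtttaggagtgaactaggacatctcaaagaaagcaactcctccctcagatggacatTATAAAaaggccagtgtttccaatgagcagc
Sprr1a (chr3:92485882-92486001, minus strand): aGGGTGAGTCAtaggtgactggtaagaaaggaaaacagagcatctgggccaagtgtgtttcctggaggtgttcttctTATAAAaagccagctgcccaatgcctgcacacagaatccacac
Sprr1b (chr3:92438780-92438899, minus strand): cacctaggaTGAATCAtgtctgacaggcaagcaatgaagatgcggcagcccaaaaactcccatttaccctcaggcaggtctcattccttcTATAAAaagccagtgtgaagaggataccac
Lce1m (chr3:93019062-93019181, minus strand): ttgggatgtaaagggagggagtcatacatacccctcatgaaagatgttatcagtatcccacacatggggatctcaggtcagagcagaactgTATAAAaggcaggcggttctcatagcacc
S100a11 (chr3:93520376-93520495, plus strand): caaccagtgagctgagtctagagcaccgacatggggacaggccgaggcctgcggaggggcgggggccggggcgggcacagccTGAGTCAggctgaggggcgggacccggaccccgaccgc

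At least 1 RefSeq window of 250 bases before to 50 bases after a start was found for 48 of the 55 genes. S100a3 and S100a16 had more than 1, and a gene was counted when any of its windows held the motif. The Sprr2a2 window lies 34727 bases from the annotated start of the gene, and the S100a3 windows lie 24081 to 39636 bases from that of S100a3. TATAAA placed between 45 and 16 bases before the start was found for 19 of these 48 genes (39.6%), against 2.57% of all 27025 genes in the RefSeq table. By subfamily, 10 of 13 Sprr genes, both precursors, 3 of 5 S100-fused genes, 2 of 10 S100a genes and 2 of 18 Lce genes held it there. TGANTCA, searched over the whole window on both strands, was found for 17 of the 48 (35.4%), against 8.97% of all genes. The genes with it were 9 of 13 Sprr, both precursors, 4 of 5 S100-fused, 2 of 10 S100a and 0 of 18 Lce. In S100a16 it stood only in the window 3892 bases from the annotated start. The TCF/LEF core CTTTGNT was found for 10.4% of the members and 20.9% of all genes, the Grhl half-site CCGGTT for 0 of 48 and 7.74%, and CACCC for 54.2% and 59.8%. These are matches of letters and not measured binding, the genes of a subfamily share sequence, and no match says nothing of a factor.

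Library totals ran from 26768810 to 36922108 estimated counts. Levels are given as CPM, counts scaled to a common total per library after TMM normalization, and fold changes, standard errors (SE) and adjusted p-values come from edgeR's quasi-likelihood test across 17269 genes, with Benjamini-Hochberg adjustment and a threshold of 0.05. Ctnnb1 had 1693 to 3211 CPM in E16.5 stabilized and 1112 to 1395 CPM in E16.5 control libraries, and 2758 to 3496 CPM in E13.5 stabilized and 2421 to 3156 CPM in E13.5 control libraries. Gene counts do not show the loss of exon 3. Epithelial markers (Epcam, Cdh1, Krt5, Krt14, Krt8) summed to 2743 to 5818 CPM in E16.5 stabilized and 1983 to 2261 CPM in E16.5 control libraries, which do not overlap, and to 2002 to 2797 CPM in E13.5 stabilized and 2016 to 2619 CPM in E13.5 control libraries. The mammary bud markers (Tbx3, Lef1, Pthlh, Gata3) summed to 624 to 906 CPM in E16.5 stabilized and 711 to 1013 CPM in E16.5 control libraries, and to 1236 to 1500 CPM in E13.5 stabilized and 2535 to 3650 CPM in E13.5 control libraries, which do not overlap. In E16.5 stabilized library 4, Gm10800 alone took 10.5% of all counts, against at most 0.553% elsewhere, and E16.5 stabilized library 1 stood apart in the genes described here. For genes described by library in the E16.5 genotype comparison, values without stabilized library 1 are given where the stabilized mean moved by over 1.5 times.

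At E16.5, stabilized epithelium carried RNA of nearly the whole complex, and control epithelium carried little beyond a few S100a genes. Summed over the 55 genes, the E16.5 stabilized libraries 1 to 5 held 12311, 2136, 1727, 1819 and 1945 CPM, and the E16.5 control libraries 1 to 5 held 203, 241, 226, 246 and 193 CPM. In E13.5 stabilized libraries 1 to 4 the sum was 270, 110, 305 and 172 CPM, and in E13.5 control libraries 1 to 4 it was 137, 102, 174 and 114 CPM. Every E16.5 stabilized library lay above all 13 others, and library 1 lay far above the remaining 4. Every one of the 55 genes had at least 1 count in the E16.5 stabilized group, whereas 29 had none in E16.5 controls, 37 none in E13.5 stabilized samples and 34 none in E13.5 controls. In the 13 libraries outside the E16.5 stabilized group, 27 of the 55 had no count at all. Fewer cells of a type and less RNA per cell cannot be told apart in such bulk samples.

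**Figure D1:**
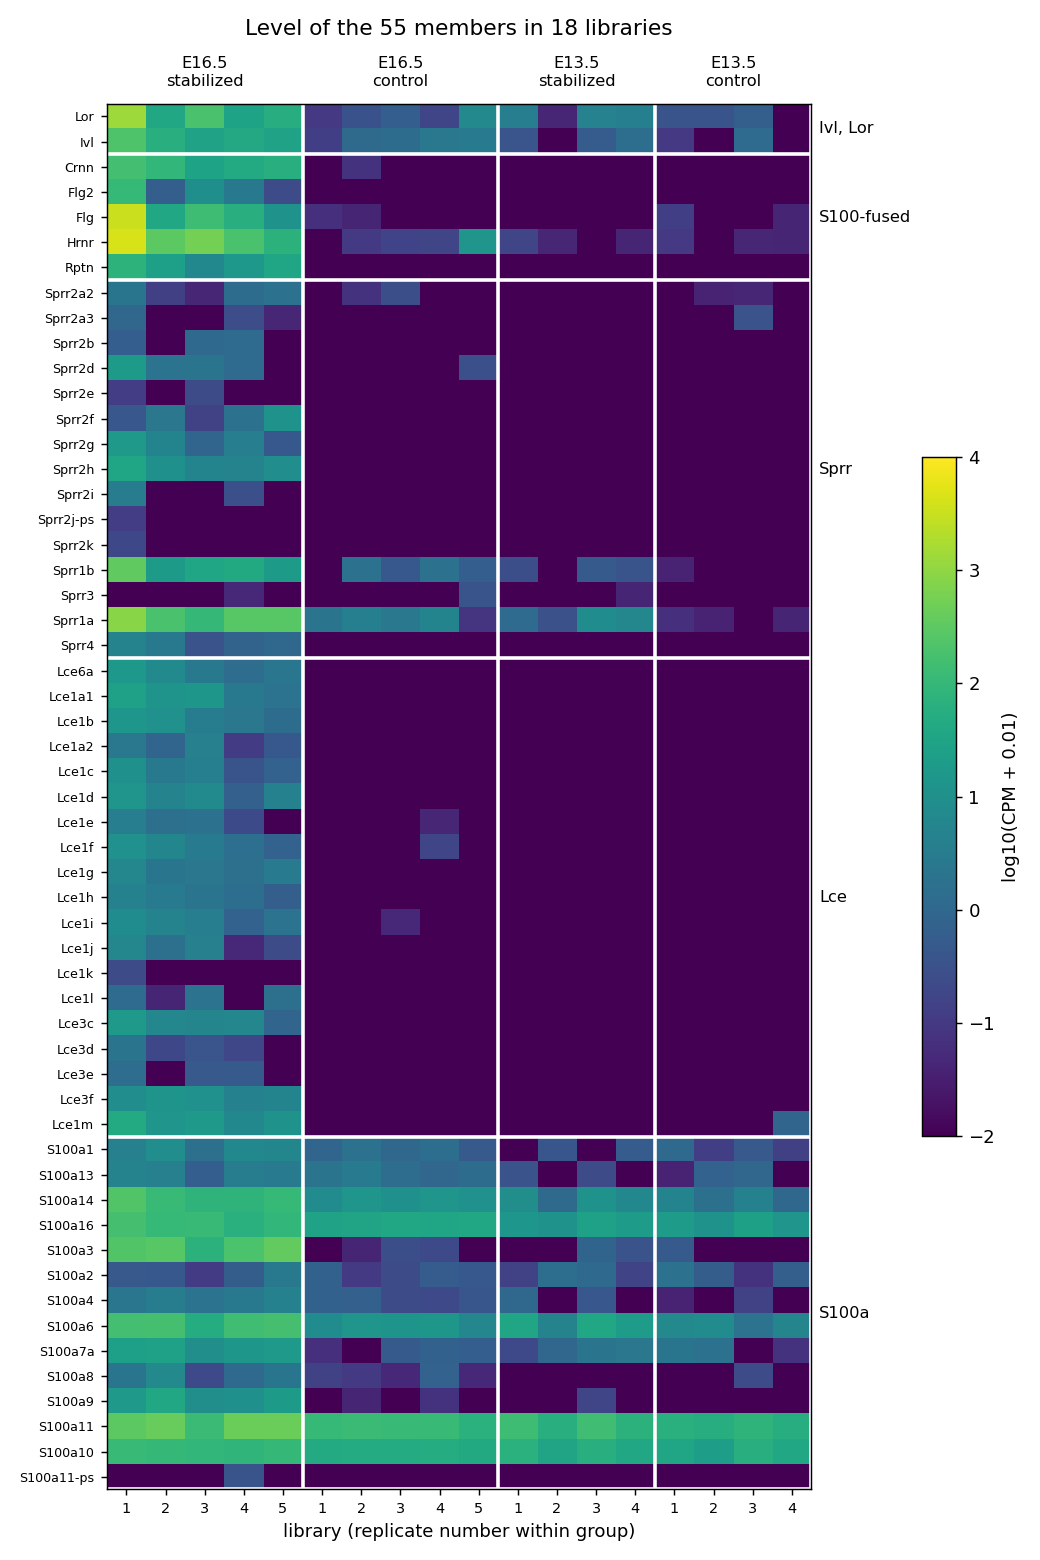
Level of each of the 55 genes (rows, grouped by subfamily and ordered by position within it) in the 18 libraries (columns, grouped by stage and genotype), as log10(CPM + 0.01), where the darkest colour is 0 counts. The Lce block is filled in the 5 E16.5 stabilized libraries and nearly empty in the other 13, while S100a10, S100a11 and S100a16 have counts in all 18.

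The filter on low counts kept 40 of the 55 genes and dropped 15: 8 Sprr genes, 6 Lce genes and the pseudogene S100a11-ps. Of the 40, 26 passed through the E16.5 stabilized libraries, with fewer than 4 of the other 13 libraries above the filter's minimum, so they had to differ and their calls describe rather than test the set. They were all 13 tested Lce genes, all 5 S100-fused genes, 5 of the 7 tested Sprr genes and 3 of the 13 tested S100a genes. In the E16.5 genotype comparison 35 genes rose and 0 fell (38 and 0 at an unadjusted p under 0.05 in edgeR, and 36 and 0 by DESeq2), beside 22.2% of all tested genes that rose and 19.4% that fell. Of the 14 genes that would have passed without the E16.5 stabilized group, 10 rose and 0 fell. The median log2 fold change of the 40, with genes absent from the controls placed at their lower bound, was 7.31, beside 0.10 for all 17269 genes. A total of 36 of the 55 genes were higher in every E16.5 stabilized library than in every E16.5 control library, and 0 were lower in every one. Of all 24376 genes in the table, 13.2% were higher in every stabilized library and 12.7% lower.

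Both envelope precursors rose. Lor, whose glycine-rich product is the main component of the mature envelope, had 1331, 39.9, 187, 30.9 and 53.5 CPM in E16.5 stabilized libraries 1 to 5, and 0.0876, 0.323, 0.601, 0.168 and 6.68 CPM in E16.5 control libraries 1 to 5. The stabilized libraries lay above all controls, with library 1 highest by far and control library 5 highest among the controls. The log2 fold change was 7.73 ± 1.57 (SE, adjusted p = 0.00106), 5.64 without stabilized library 1 and 10.15 without control library 5. Ivl, an early glutamine-rich scaffold of the envelope, had 219.9, 61.1, 28.4, 42.0 and 29.0 CPM in the stabilized libraries and 0.117, 1.16, 1.32, 2.51 and 2.89 CPM in the controls. These groups did not overlap, and the log2 fold change was 5.58 ± 1.08 (adjusted p = 0.000652), or 4.65 without stabilized library 1.

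The S100-fused genes ranged from near absence in controls to the highest single counts of the complex in stabilized samples, and 4 of the 5 rose. Hrnr (hornerin, a repeat-rich protein of the granular layer) had 4359, 302, 547, 194 and 71.9 CPM in E16.5 stabilized libraries 1 to 5, against 0, 0.097, 0.150, 0.168 and 13.1 CPM in E16.5 control libraries 1 to 5. Again stabilized library 1 was the highest, and among the controls library 5 alone passed 1 CPM, as it did for Lor. The log2 fold change was 8.67 ± 1.72 (adjusted p = 0.000878), 6.70 without stabilized library 1 and 13.37 without control library 5. Flg, whose profilaggrin is cut into the filaggrin that bundles keratin, had 3312, 39.8, 134, 56.5 and 11.6 CPM in stabilized libraries and 3 counts in all 5 controls together. One stabilized library thus held 93.2% of the group's summed CPM. The ratio of the groups was 32301 (95% counting interval 11053 to 156634, which covers counting error only; adjusted p = 0.000424), and 2994 without stabilized library 1.

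Crnn (cornulin, a product of squamous epithelia) was the most even of the 5, with 158, 95.3, 30.3, 45.5 and 59.5 CPM in stabilized libraries against 2 counts in all controls (ratio 5725, counting interval 1584 to 47276, adjusted p = 4.78e-07). Rptn (repetin, a matrix protein of the envelope) had 77.6, 24.7, 6.16, 15.6 and 34.3 CPM in stabilized libraries and no count in the controls, at least 1580.4-fold higher (adjusted p = 0.000334), or at least 1007-fold without library 1. Bounds of this kind set the absent group at 3 counts over all its libraries. Flg2, a relative of filaggrin, had 106, 0.663, 9.57, 2.64 and 0.238 CPM in the stabilized libraries and no count in the controls. That is at least 1184-fold higher in total, but 88.9% of the summed CPM came from library 1 and the test did not pass (adjusted p = 0.0502). Without library 1 the bound was 164-fold and the gene fell under the filter.

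**Figure D2:**
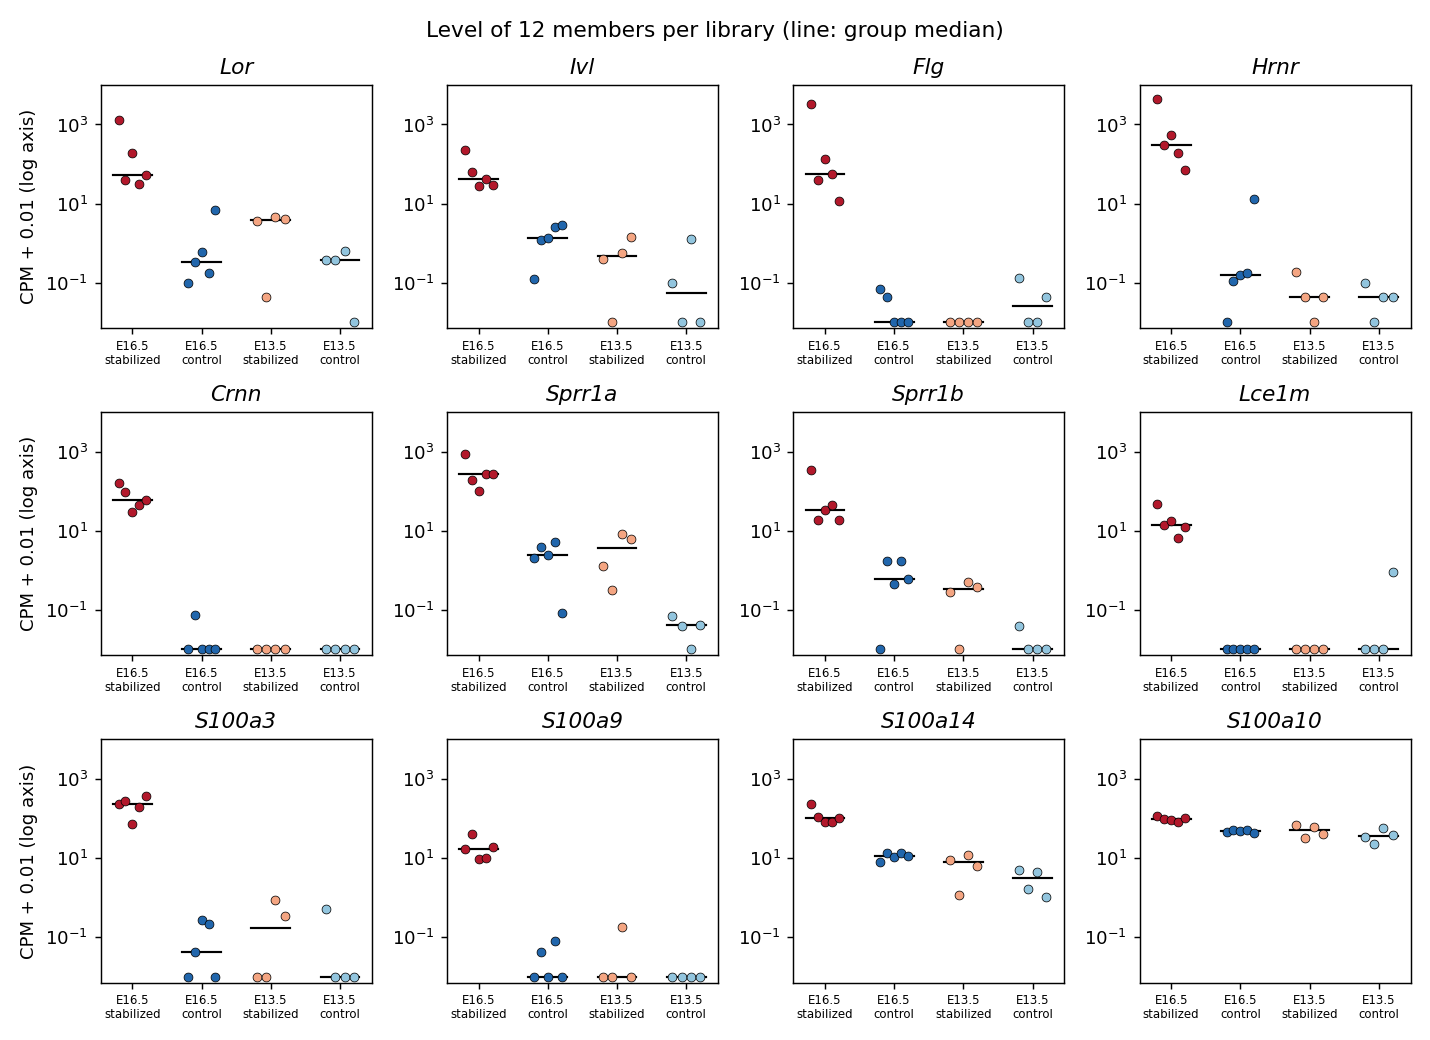
Level of 12 genes in each library, as CPM + 0.01 on a log axis, with 1 point per library and a line at the group median. Lor, Ivl, Flg, Hrnr, Crnn, Sprr1a, Sprr1b, Lce1m, S100a3, S100a9, S100a14 and S100a10 all show the 5 E16.5 stabilized points above the 5 E16.5 control points, by the least in S100a10.

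All 7 Sprr genes that could be tested rose, and 8 of the 15 stayed under the filter. Sprr1a, a cross-bridging protein of the envelope that is also induced by wounding, had 847, 187, 101, 279 and 277 CPM in E16.5 stabilized libraries 1 to 5 and 2.04, 3.98, 2.48, 5.09 and 0.0714 CPM in the controls. Its log2 fold change was 6.95 ± 0.971 (adjusted p = 3.67e-05), with no overlap, and 6.26 without library 1. Sprr1b, its close relative, had 336, 19.1, 34.2, 44.3 and 19.0 CPM against 0, 1.71, 0.451, 1.74 and 0.607 CPM, a log2 fold change of 6.64 ± 1.08 (adjusted p = 0.00014) that was 5.01 without stabilized library 1. Per kilobase of exon, the mean level in E16.5 stabilized samples was 420 CPM for Sprr1a, 185 for Lor, 109 for Sprr1b, 97.9 for Hrnr, 41.7 for Crnn, 39.6 for Ivl and 37.7 for Flg. This order depends on stabilized library 1. The mean was 11.8 times the mean without that library for Flg, 4.23 times for Lor, 3.93 for Hrnr and 3.11 for Sprr1b. It was 1.90 times for Ivl, 1.60 for Sprr1a and 1.35 for Crnn.

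The Sprr2 genes were lower and less even. Sprr2h had 36.4, 10.5, 5.18, 4.78 and 8.72 CPM in stabilized libraries and no count in any other library (at least 655-fold higher than E16.5 controls, adjusted p = 3.11e-05, and at least 364-fold without library 1). Sprr2g, annotated as a polymorphic pseudogene, had 17.4, 5.08, 0.920, 3.61 and 0.441 CPM and likewise no count elsewhere (at least 274-fold, adjusted p = 0.000744, and at least 125-fold without library 1). For Sprr2d the stabilized libraries had 18.8, 1.96, 1.98, 1.21 and 0 CPM and control library 5 had 0.286 CPM, so the groups overlapped. Its log2 fold change of 6.32 ± 1.87 passed in edgeR (adjusted p = 0.0162) but not in DESeq2 (adjusted p = 0.0982). Without library 1 its stabilized mean was 1.29 CPM, against 4.79 CPM with it, and the gene fell under the filter. Sprr2f, with 0.421, 2.40, 0.136, 1.68 and 12.1 CPM, was the one tested Sprr gene whose highest library was 5 and not 1. Sprr3, a protein of the oral and oesophageal lining, had 1 count in E16.5 stabilized samples and 10 in E16.5 controls, all in control library 5, and was not tested.

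All 13 tested Lce genes rose, and 6 more stayed under the filter. Their products join the envelope last, in the upper granular layer. Lce1m was the most abundant, with 46.7, 13.8, 17.7, 6.43 and 12.4 CPM in E16.5 stabilized libraries 1 to 5 and no count in E16.5 controls (at least 967-fold higher, adjusted p = 0.00102, and at least 627-fold without library 1). Lce1a1 had 27.2, 12.9, 15.3, 2.71 and 1.93 CPM and no count in any of the other 13 libraries (at least 599-fold, adjusted p = 0.000133). Libraries 1 to 3 were high and libraries 4 and 5 low for this gene. Lce3c followed with 16.6, 5.87, 5.35, 5.82 and 0.883 CPM (at least 344-fold, adjusted p = 0.000122, and at least 223-fold without library 1) and Lce3f with 8.95, 12.7, 11.1, 4.39 and 5.16 CPM (at least 421-fold, adjusted p = 1.01e-05), again with no count elsewhere. Summed over the 19 genes, the stabilized libraries 1 to 5 held 199.9, 91.2, 90.4, 30.5 and 37.6 CPM, and 16 of the 19 had no count in any E16.5 control.

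Counts of single Lce genes are uncertain, because they share sequence. Of all 31-base words in the annotated transcripts of an Lce gene, a median of 37.4% also occurred in another gene, with 58.8% for Lce1i and 60.3% for Lce3d, and the counter has to split such reads. The same share was 97.8% for Sprr2a2 and 73.6% for Sprr2a3, both with Sprr2a1, and at most 0.482% for Lor, Ivl and the S100-fused genes. Lce1m (0.926%), Lce6a, Sprr1a and Sprr1b (0% each) share almost nothing with other genes. Lce6a had 15.9, 7.54, 2.66, 1.39 and 2.21 CPM in stabilized libraries and no count elsewhere (at least 296-fold, adjusted p = 0.000208). Among the S100a genes the share was 48.9% for S100a11, mostly with a pseudogene, and 49.2% for S100a4, with Gm42674, while S100a3 overlaps S100a2 on the same strand.

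S100a genes ranged from those well present in all 4 groups to those nearly restricted to E16.5 stabilized samples, and 9 of 14 rose. S100a3, whose product is known from the cuticle of the hair shaft, had 234, 269.7, 71.4, 196 and 371 CPM in E16.5 stabilized libraries 1 to 5 and 0, 0.0323, 0.263, 0.201 and 0 CPM in the controls. Its log2 fold change of 11.18 ± 1.04 (adjusted p = 4.78e-07) was 11.17 without stabilized library 1, which was not its highest. S100a9, a calprotectin subunit made by neutrophils and by stressed keratinocytes, had 16.49, 39.7, 9.43, 10.03 and 18.4 CPM in stabilized libraries and 3 counts in the 5 controls (ratio 961, counting interval 329 to 4664, adjusted p = 9.01e-07). Its partner S100a8 had 2.18, 6.53, 0.204, 1.11 and 2.17 CPM against 0.146, 0.097, 0.0376, 0.771 and 0.0357 CPM, with overlap (log2 fold change 3.46 ± 1.35, adjusted p = 0.049). Of 4 neutrophil markers in the table (of Ly6g, Mpo, Elane, Ngp, Camp and Ltf), the summed level was 0 to 0.714 CPM in E16.5 stabilized and 0 to 0.436 CPM in E16.5 control libraries. S100a7a, a relative of psoriasin, had 24.5, 26.9, 9.33, 15.1 and 18.03 CPM against 0.0584, 0, 0.489, 0.704 and 0.607 CPM (log2 fold change 5.66 ± 1.15, adjusted p = 0.000731).

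The S100a genes with the highest levels in E16.5 controls rose by less than S100a3, S100a9 and S100a7a. S100a6 (calcyclin) had 162, 171, 52.1, 144 and 167 CPM in E16.5 stabilized libraries 1 to 5, all above the 8.29, 13.4, 13.004, 15.2 and 6.07 CPM of the controls. Its log2 fold change was 3.64 ± 0.533 (adjusted p = 4.32e-05). S100a14, found in many epithelia, had 233, 110, 80.7, 79.3 and 104 CPM against 7.97, 13.2, 10.5, 13.4 and 11.1 CPM (3.44 ± 0.543, adjusted p = 8.73e-05). S100a16 had 167, 103, 110, 65.7 and 92.2 CPM against 28.3, 32.0, 37.1, 35.8 and 37.4 CPM (1.66 ± 0.258, adjusted p = 3.74e-05). S100a11, an envelope-associated S100 protein, had 314, 412, 120.2, 457 and 437 CPM against 106, 119.8, 109, 115 and 67.1 CPM (1.75 ± 0.326, adjusted p = 0.000339). In it, stabilized library 3 came within 1 CPM of control library 2. S100a10, the partner of annexin A2, had 113, 97.2, 91.8, 82.4 and 102 CPM against 45.9, 49.3, 48.0, 52.1 and 43.7 CPM, and its log2 fold change of 1.02 ± 0.21 (adjusted p = 0.000544) was the smallest of the 35 that passed.

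S100a1, S100a13, S100a2 and S100a4 did not pass at E16.5. S100a1 had 1.60 to 8.58 CPM in stabilized and 0.4998 to 1.71 CPM in control libraries, with a log2 fold change of 2.23 ± 0.894 (adjusted p = 0.052). S100a4, a gene also made by fibroblasts, had 1.91 to 4.31 CPM in stabilized and 0.201 to 0.730 CPM in control libraries, which do not overlap (2.68 ± 1.11, adjusted p = 0.060). S100a13 differed by 0.87 ± 1.02 (adjusted p = 0.531) and S100a2 by 1.07 ± 1.01 (adjusted p = 0.431), and both overlapped.

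**Figure D3:**
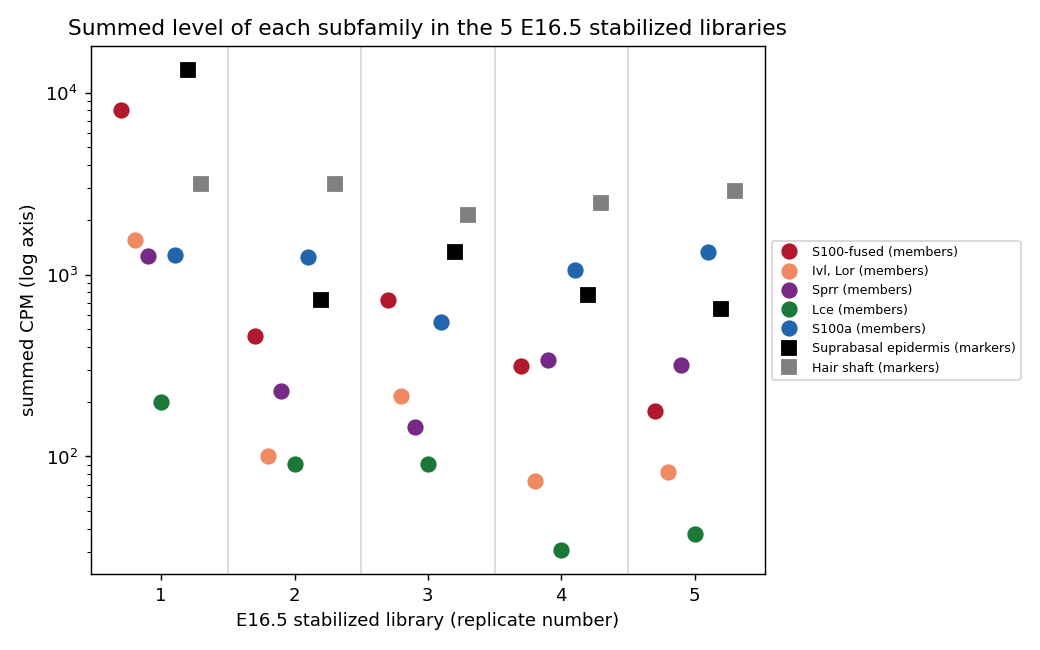
Summed CPM (log axis) of each subfamily and of 2 marker lists in the 5 E16.5 stabilized libraries, with 1 point per library and set. In library 1 the S100-fused genes (8012 CPM), the precursors (1551 CPM), the Sprr genes (1269 CPM) and the suprabasal keratins (13333 CPM) stand far above libraries 2 to 5, while the S100a genes and the hair shaft markers do not.

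The 5 E16.5 stabilized libraries did not carry the same mix. The S100-fused genes summed to 8012, 462, 727, 314 and 177 CPM in libraries 1 to 5, the precursors to 1551, 101, 215, 72.9 and 82.5 CPM, and the Sprr genes to 1269, 229, 145, 338 and 320 CPM. Library 1 was highest in each of these 3 sets. The S100a genes summed to 1279, 1253, 549.6, 1063 and 1328 CPM, with library 3 the low one and the others alike. Among genes with enough counts to rank (30 or more in the group), library 1 was the highest for all 5 S100-fused genes, both precursors, 15 of 18 Lce and 9 of 11 Sprr genes, but for only 4 of 13 S100a genes, of which 5 peaked in library 2 and 3 in library 5.

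Markers of several other cell types also differed between the E16.5 groups, and not all were highest in library 1. The suprabasal keratins Krt1 and Krt10 summed to 13333 CPM in stabilized library 1, with a group median of 768 and a minimum of 646 CPM, against 32.0 to 169 CPM in E16.5 controls. Hair shaft markers (5 of the 6 genes Krt31, Krt33a, Krt34, Krt85, Krt86 and Hoxc13 were in the table) summed to 2126 to 3142 CPM in all 5 stabilized libraries and to 0.117 to 1.54 CPM in E16.5 controls. Inner root sheath markers (Krt25, Krt27, Krt71, Krt73, Tchh) summed to 1501 to 5374 CPM against 4.58 to 8.46 CPM, and Krt25 was at 0 in E16.5 controls. Most of that sum in each stabilized library was Tchh (1133 to 4434 CPM), itself a gene of the complex outside the naming rule. Periderm markers (Krt4, Krt6a, Krt13, Krt17) summed to 2567 to 9196 CPM against 491 to 822 CPM. The 7 mesenchyme markers summed to 371 to 668 CPM, highest in library 3, against 96.4 to 374 CPM, with overlap. The 5 macrophage and leukocyte markers were lower, at 5.30 to 9.15 CPM against 11.6 to 14.9 CPM. The 3 endothelial markers overlapped, at 3.37 to 6.30 CPM against 2.75 to 12.4 CPM. The part of these cell types in the levels of the complex was not tested. Without stabilized libraries 1 and 4, an alternative chosen after seeing the data, 31 genes rose and 0 fell. Over all genes in that fit, 3118 rose and 2567 fell. Members that passed the filter through the remaining stabilized libraries had to differ here too. Of the 24 genes described by library, the stabilized mean moved by over 1.5 times for 13 without library 1 and for 0 without library 4.

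At E13.5, 2 genes rose in stabilized buds and 0 fell (3 and 0 at an unadjusted p under 0.05 in edgeR, 3 and 0 past the threshold in DESeq2), beside 9.58% of all tested genes that rose and 5.29% that fell. Sprr1a had 1.27, 0.299, 8.07 and 6.02 CPM in E13.5 stabilized libraries 1 to 4, against 0.0592, 0.0297, 0 and 0.0324 CPM in the controls, 4 counts in all. The groups did not overlap, and the log2 fold change was 6.79 ± 1.60 (adjusted p = 0.00886). Stabilized library 2 held only 9 counts, and Sprr1a was not called in a fit of the 8 E13.5 libraries alone. S100a6 had 36.0, 4.91, 39.0 and 20.7 CPM in stabilized and 6.74, 7.73, 1.87 and 5.34 CPM in control libraries. Stabilized library 2 lay inside the control range and the other 3 above it, and the log2 fold change of 2.21 ± 0.57 passed (adjusted p = 0.0143). It no longer passed in a fit of the 8 E13.5 libraries alone (adjusted p = 0.0642), nor without stabilized library 3 (adjusted p = 0.0506). Periderm markers summed to 387, 109, 464 and 387 CPM in E13.5 stabilized libraries 1 to 4 and to 25.2, 20.7, 51.0 and 18.3 CPM in E13.5 control libraries 1 to 4, with stabilized library 2 lowest of the 4, as for Sprr1a and S100a6. Of these 4 markers, Krt6a and Krt17 rose. Their part in the result was not tested.

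The other members were absent or did not pass at E13.5. Lor had 3.62, 0.0332, 4.57 and 3.96 CPM in stabilized and 0.355, 0.357, 0.635 and 0 CPM in control libraries. As for S100a6, stabilized library 2 fell among the controls, and the log2 fold change of 3.16 ± 1.75 did not pass (adjusted p = 0.282). S100a14 had 9.03, 1.16, 12.1 and 6.28 CPM against 5.06, 1.64, 4.41 and 1.04 CPM (1.23 ± 0.584, adjusted p = 0.194). S100a10 (0.41 ± 0.233, adjusted p = 0.283), S100a11 (0.69 ± 0.357, adjusted p = 0.239) and S100a16 (0.02 ± 0.283, adjusted p = 0.997) did not pass either. No Lce gene had a count in E13.5 stabilized samples, which allows up to 0.0252 CPM over the group for each, and of the S100-fused genes only Hrnr had any, 7 in all. Lce1m had 27 counts in E13.5 control library 4 and none in the other 3 controls.

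**Figure D4:**
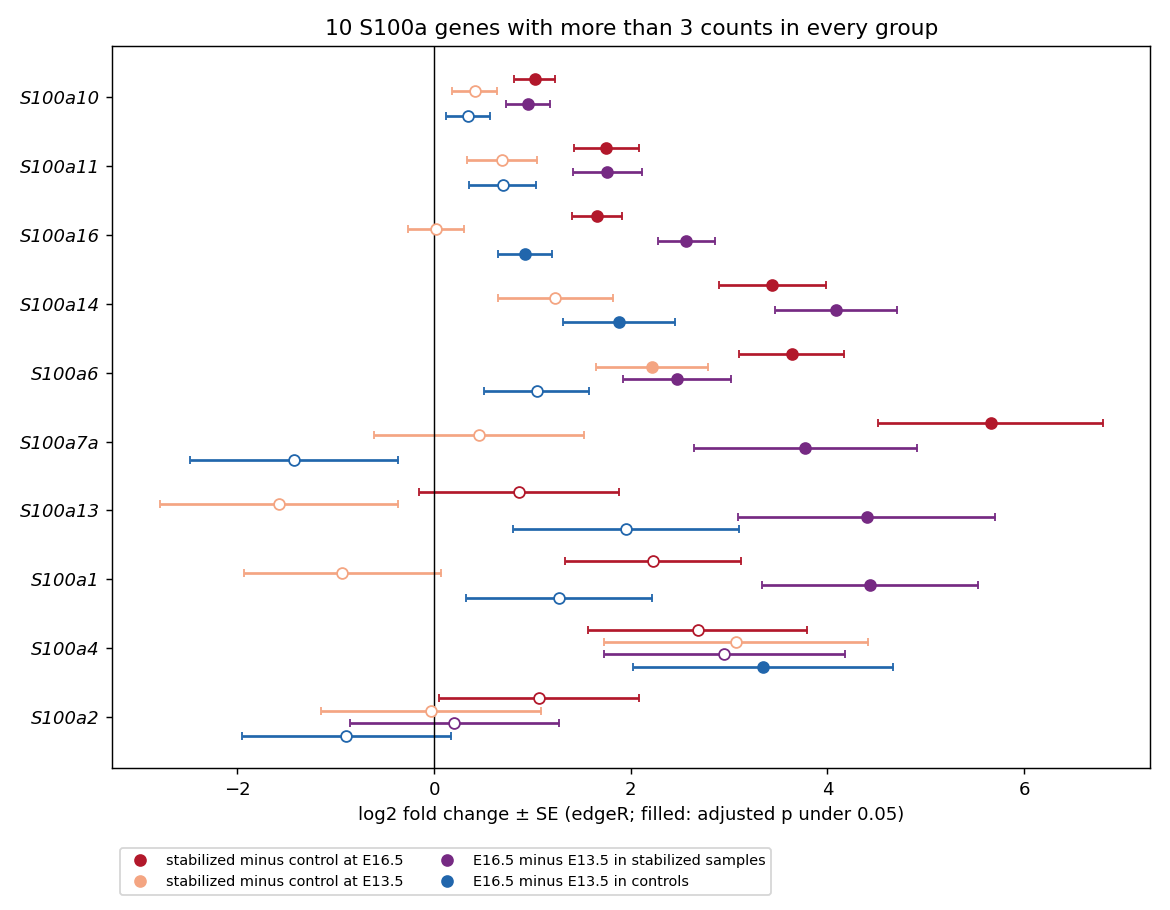
Log2 fold change with its SE (edgeR) of 10 S100a genes that had more than 3 counts in every group, in 4 comparisons. A filled point passed the adjusted p threshold. S100a6 is the only one of the 10 filled for the genotype comparison at E13.5, and S100a10, S100a11, S100a16, S100a14, S100a6 and S100a7a are filled at E16.5.

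Between the stages, 37 genes were higher at E16.5 than at E13.5 in stabilized samples and 0 were lower (39 and 0 at an unadjusted p under 0.05 in edgeR, 38 and 0 past the threshold in DESeq2), beside 16.52% of all tested genes (2852 of 17269) that were higher and 11.5% that were lower, 28% in all. These comparisons use the same E16.5 stabilized libraries as the genotype comparison, and the 26 genes that passed the filter through them had to differ here too. Of the 14 genes that would have passed without that group, 12 were higher and 0 were lower. Crnn had 30.3 to 158 CPM at E16.5 and no count at E13.5 (at least 3078-fold, adjusted p = 2.96e-06), Hrnr was higher by 14.08 ± 2.53 on the log2 scale (adjusted p = 0.000754), and Flg was at least 28145-fold higher (adjusted p = 0.00156). S100a1 (4.43 ± 1.09, adjusted p = 0.00465) and S100a13 (4.40 ± 1.30, adjusted p = 0.0157), which had not passed between genotypes, passed here. S100a2, S100a4 and Flg2 were the tested genes that did not.

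In controls, 5 genes were higher at E16.5 than at E13.5 and 0 were lower (6 and 1 at an unadjusted p under 0.05 in edgeR, 6 and 0 past the threshold in DESeq2), beside 24.9% of all tested genes that were higher and 22.6% that were lower. Sprr1a had 2.04, 3.98, 2.48, 5.09 and 0.0714 CPM in E16.5 controls and 0 to 0.0592 CPM in E13.5 controls, a log2 fold change of 6.28 ± 1.61 (adjusted p = 0.0049). Sprr1b had 134 counts in E16.5 controls and 1 in E13.5 controls (ratio 115, counting interval 20.3 to 4568, adjusted p = 0.0241), and overlapped through E16.5 control library 1, which had none. S100a14 (1.88 ± 0.571, adjusted p = 0.0128), S100a16 (0.93 ± 0.273, adjusted p = 0.00918) and S100a4 (3.35 ± 1.32, adjusted p = 0.0434) were the others, each without overlap. The suprabasal keratins summed to 32.0 to 169 CPM in E16.5 and 8.27 to 24.1 CPM in E13.5 controls, and the periderm markers to 491 to 822 CPM in E16.5 and 18.3 to 51.0 CPM in E13.5 controls; their part in these results was not tested. Flg, Lor, Ivl and Hrnr did not pass, and Lce counts in E16.5 controls were confined to 7 counts, in Lce1e, Lce1f and Lce1i.

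The genotype effect differed between the stages for 7 of the 40 tested genes, all with a larger effect at E16.5, and for 0 in the other direction (9 and 0 at an unadjusted p under 0.05 in edgeR). That is near the 15.6% of all tested genes with a positive interaction, while 16.6% had a negative one, 32.2% in all. Of the 14 genes that would have passed the filter without the E16.5 stabilized group, 4 were called. DESeq2 gave 30 and 0, beside 3313 positive and 2864 negative interactions over all 17269 genes. Its calls on genes that passed the filter through the E16.5 stabilized libraries describe rather than test them. At E13.5, 34 of the 55 genes had at most 3 counts in each genotype, so their effect at that stage could not be estimated. S100a16 had an interaction of 1.64 ± 0.381 on the log2 scale (adjusted p = 0.00268), S100a14 of 2.21 ± 0.771 (adjusted p = 0.0385), S100a7a of 5.20 ± 1.52 (adjusted p = 0.0145) and Ivl of 4.70 ± 1.70 (adjusted p = 0.046). The calls of S100a3 (10.07 ± 2.20, adjusted p = 0.00248) and Lce1m (adjusted p = 0.00197) rested on 17 and 27 counts of a single E13.5 control library each. Without that library the interaction did not pass for S100a3 (5.06, adjusted p = 0.999963) or for Lce1m (adjusted p = 0.999967). The Ivl call was lost in 11 of 18 fits with 1 library left out and in 4 of 6 other alternatives, among them the replicate block (adjusted p = 0.116), and its interaction was 1.46 without E13.5 control library 3 (adjusted p = 0.802). The S100a14 call was lost in 8 of the 18 and 3 of the 6 (adjusted p = 0.0682 with the block), and that of S100a7a in 0 and 1 (0.0921 with the block). The last of the 7, S100a8 (adjusted p = 0.0246), had no count in E13.5 stabilized samples. Its 7 counts in E13.5 controls were all in control library 3, so its E13.5 values also rested on a single library. Sprr1a, which rose at both stages, gave an interaction of 0.15 (adjusted p = 1.00); that p does not show that the effects are alike.

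Other genes of the same locus were also measured. Of 9 listed genes of the complex outside the naming rule, 7 were in the table and 6 tested, and 6 rose and 0 fell at E16.5, while 0 rose and 0 fell at E13.5 in edgeR (1 and 0 at an unadjusted p under 0.05, and 1 and 0 past the threshold in DESeq2). The nearest at E13.5 was Prr9 (ratio 45.9, counting interval 12.3 to 385, adjusted p = 0.0643). Tchh, which encodes trichohyalin of the inner root sheath, had 4434, 1886, 1133, 1318 and 2105 CPM in E16.5 stabilized and 1.93 to 6.65 CPM in E16.5 control libraries (9.07 ± 0.615, adjusted p = 8.92e-09). Prr9 had 216 ± 68.4 CPM in E16.5 stabilized and 0.282 ± 0.322 CPM in E16.5 control samples (SD, n = 5 each; edgeR adjusted p = 1.55e-06), and Crct1 87.2 ± 52.6 and 0.115 ± 0.199 CPM (SD, n = 5 each; edgeR adjusted p = 2.31e-07). Among all 27 genes of the table that lie between the outermost members on chromosome 3 and are not members, 11 were tested, and 9 rose and 0 fell at E16.5. The shares over all tested genes at E16.5 were 22.2% higher and 19.4% lower. As for the members, 5 of the 6 and 9 of the 11 passed the filter through the E16.5 stabilized libraries and had to differ, which leaves 1 gene of the 6, Tchh, and 2 of the 11, of which 1 rose.

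The enzymes, keratins and plakins that work with the members also rose. Of 21 partners of the cornified envelope, 20 were tested and 20 rose at E16.5, with a median log2 fold change of 5.53 beside 0.10 for all genes, and 5 rose and 0 fell at E13.5, beside 22.2% of all tested genes that rose at E16.5 and 9.58% at E13.5. Of the 20, 3 passed the filter through the E16.5 stabilized libraries, and the other 17 all rose. Envoplakin (Evpl), a scaffold beneath the envelope, averaged 319 ± 172 CPM in E16.5 stabilized and 28.03 ± 3.00 CPM in E16.5 control samples (SD, n = 5 each), a log2 fold change of 3.51 ± 0.289 (edgeR adjusted p = 3.33e-08). Its partner periplakin (Ppl) rose by 2.78 ± 0.281 (adjusted p = 3.71e-07), and the protease Asprv1, which processes profilaggrin, by 4.51 ± 0.433 (adjusted p = 4.42e-07). Calm4, a calmodulin-like skin protein, had 39.1, 7.90, 31.1 and 25.9 CPM in E13.5 stabilized and 0.0592, 0, 0.936 and 0 CPM in E13.5 control libraries (6.75 ± 1.03, adjusted p = 0.000282). It was past the threshold at E13.5, as were the members Sprr1a and S100a6, while Ivl, Lor and the Lce genes were not. Whether Calm4 rose before the members was not tested.

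Of 21 regulators of stratified differentiation, 14 rose and 1 (Cebpb) fell at E16.5, and 11 rose and 2 (Fosl2 and Satb1) fell at E13.5. Over all tested genes, 22.2% rose and 19.4% fell at E16.5, and 9.58% rose and 5.29% fell at E13.5. Trp63, which encodes the master factor p63 of stratified epithelia, averaged 732 ± 41.2 CPM in E16.5 stabilized and 92.1 ± 12.1 CPM in E16.5 control samples (SD, n = 5 each; log2 fold change 2.99 ± 0.119, edgeR adjusted p = 1.41e-12). At E13.5 it was 455 ± 40.4 and 414 ± 50.8 CPM in stabilized and control samples (SD, n = 4 each) and did not pass (edgeR adjusted p = 0.557). Prdm1, which encodes the repressor Blimp1 of the granular layer and other lineages, had 24.2, 13.4, 25.5 and 35.3 CPM in E13.5 stabilized and 1.48, 2.71, 2.04 and 3.30 CPM in E13.5 control libraries (3.37 ± 0.288, adjusted p = 1.18e-07). At E16.5 its log2 fold change was 4.49 ± 0.267 (adjusted p = 1.41e-10), and Grhl1, a factor of the suprabasal layers, rose by 3.32 ± 0.266 (adjusted p = 1.58e-08).

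Binding partners of S100 proteins and S100 genes outside the locus changed in both directions. Of 9 tested, 1 rose and 4 fell at E16.5, with a median log2 fold change of -0.34, and 2 rose and 1 fell at E13.5, beside 22.2% up and 19.4% down among all tested genes at E16.5 and 9.58% and 5.29% at E13.5. Anxa2, whose product binds S100a10, rose by 1.75 ± 0.146 (adjusted p = 1.41e-08), while Anxa6 fell by 1.92 (SE 0.118, adjusted p = 2.06e-10) and Cacybp, the calcyclin-binding protein, fell by 0.78 (SE 0.188, adjusted p = 0.00218). Anxa6 was also lower in E13.5 stabilized than in E13.5 control samples (-0.76 ± 0.128, adjusted p = 0.000282).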

How the data were processed

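RNA-seq libraries (Ovation SoLo kit) of mouse mammary bud epithelium were analysed from 2 deposited tables. The authors' main table holds estimated counts per Ensembl gene, already whole numbers, so no rounding was applied. The second deposited table holds a normalized signal (counts divided by factors per gene and library) and served as offsets in 1 alternative. Tools listed in the submitters' processing notes are Salmon 0.99.0, Trimmomatic 0.39, FastQC 0.11.8, MultiQC 1.9 and DESeq2 3.15, with the build mm10. How strand was handled is not given in those notes, so counts of overlapping or near-identical genes are uncertain. All value columns were used.

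Totals per library lay between 26768810 and 36922108. The filterByExpr function of edgeR 4.0.16, run in R 4.3.3 with a minimum count of 10, kept 17269 genes. All 18 libraries entered a robust quasi-likelihood model with TMM factors and a mean for each group, so that groups share the dispersion estimate, and the genotype effect at each stage, the stage effect in each genotype and the interaction were tested, with Benjamini-Hochberg adjustment across the 17269 genes. SE is the absolute log2 fold change divided by the square root of the F statistic, and is left out where a group had 3 or fewer counts. Lower bounds and 95% counting intervals use counts over a group and cover counting error only. The p-values measure the spread between pools, whose litters are not given. The fit was tested on simulated data. Alternatives were RLE factors, no filter, the offsets, a replicate block, the 2 groups alone, each library left out, DESeq2 1.42.0, and, added after seeing the data, E16.5 stabilized libraries 1 and 4 left out together.

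The genes and the companion and marker lists were chosen with earlier results of these data known. Values per library are given for Ivl, Lor, the S100-fused genes and the 4 Lce, 5 Sprr and 8 S100a genes with the highest mean CPM, and for the 2 genes per comparison and direction with the largest called change. Of each companion list, the 3 genes with the smallest adjusted p at E16.5 and the 1 at E13.5 are named. Sprr2f, Sprr3, Lce6a, S100a1, S100a2, S100a4, S100a8, S100a13, the pseudogene and the genes that fell among the regulators were singled out after their values were seen. Levels per kilobase use the union of annotated exons (GENCODE M21). Promoter windows came from RefSeq (GRCm38.p6). Protein sequences were not analysed here. Values were tabulated in Python 3.11.15 and pandas 2.3.3.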

Additional observations from a re-analysis of the deposited data

Results flagged for a closer look

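Among the genes described by library, 46 groups averaged at least 1 CPM and were checked for a library far from the others of its group. Some of these genes were chosen for a high mean CPM, which 1 extreme library can raise, so the number found is not set against chance. In all, 16 such libraries were found. Of these, 12 were the highest E16.5 stabilized library, which was library 1 in each: Hrnr (4359 CPM), Flg (3312), Lor (1331), Sprr1a (847), Sprr1b (336), S100a14 (233), Ivl (219.9), Flg2 (106), Lce1m (46.7), Sprr2h (36.4), Sprr2d (18.8) and Sprr2g (17.4). E16.5 control library 5 stood apart for Hrnr and Lor, as the highest control (13.1 and 6.68 CPM), and for S100a11, as the lowest (67.1 CPM). E16.5 stabilized library 3 was the lowest for S100a6 (52.1 CPM). The sharing of libraries means that these are not independent.

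Among the 11 genes with more than 3 counts in every group, the genotype effect differed between the stages by the interaction test for 5: S100a3 (10.07 on the log2 scale), S100a7a (5.20), Ivl (4.70), S100a14 (2.21) and S100a16 (1.64). Of these, that of S100a3 was 5.06 (adjusted p = 0.999963) without E13.5 control library 1. The calls of Ivl and S100a14 were lost with the replicate block and in 11 and 8 of the 18 fits with 1 library left out, and that of S100a7a with the block. S100a16 kept its call in all 24 alternatives.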

How the results depend on the processing

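Over RLE factors, no filter, the deposited table's offsets, the 2 groups alone, the block, DESeq2 and the fit without E16.5 stabilized libraries 1 and 4, the number of genes that rose at E16.5 was 31 to 41, beside 35, and 0 fell in each. Over all genes, 3118 to 4296 rose and 2293 to 3812 fell in these settings. The replicate numbers did not pair the libraries (correlations of deviations between same-numbered libraries of -0.171 to 0.296), and with the replicate block 1 gene rose at E13.5 and 4 passed the interaction. At E13.5, 0 rose in a fit of the 2 groups alone and 3 without libraries 1 and 4 and by DESeq2, and DESeq2 gave 30 positive interactions. Over all genes, 1471 rose at E13.5 with the block, 1020 with the 2 groups alone, 1678 without libraries 1 and 4 and 1935 by DESeq2. Positive interactions over all genes numbered 2420 with the block and 3313 by DESeq2. Leaving out 1 library at a time, 29 to 43 genes rose at E16.5, 1 to 4 at E13.5, 32 to 41 between stages in stabilized samples and 3 to 7 in controls (0 to 1 fell), and 4 to 8 passed the interaction. Over all genes, 3444 to 4132 rose at E16.5 and 1298 to 1918 at E13.5 in the same fits. Between stages, 2389 to 3190 rose in stabilized samples and 3907 to 4519 in controls, and 2363 to 2860 had a positive interaction. E13.5 counts moved most without stabilized library 3 (1, beside 1298 of all genes) and control library 3 (4, beside 1918). In controls the count was 3 without E16.5 control library 2 or E13.5 control library 1, 2 or 4. The interaction count was 4 without E13.5 control library 3. Fold changes of single genes kept their direction in every setting but these, none of which was past the threshold at its reversed value. The Sprr1a interaction was -0.69 without E16.5 stabilized libraries 1 and 4 and -0.51 to 0.78 with 1 library left out. With 1 library left out, the E13.5 genotype effect was -0.058 to 4.11 for Ivl, -0.70 to 1.31 for Hrnr, -0.24 to 6.12 for S100a3 and -0.24 to 0.24 for S100a16, and the stage effect in controls was -0.24 to 2.65 for Lor and -1.16 to 4.56 for S100a3. The cause was not tested. Depth limits what can be said of genes with a few counts outside the E16.5 stabilized group.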
